A study of Mus musculus with 2 samples.

Results

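Zic-positive mesenchyme of the mouse embryonic head was examined in 191 cells, 56 from a control library and 135 from a mutant library, out of 6067 mesenchyme cells and 11212 cells in all. The cells were selected on unique molecular identifier (UMI) counts, each UMI standing for 1 captured transcript. Mesenchyme was defined by at least 3 UMIs summed over Prrx1, Prrx2 and Twist1 and at most 1 UMI over the neural and glial genes Sox2, Sox10 and Elavl3. Within it, members were chosen by at least 2 UMIs of Zic1 plus Zic4, at most 1 of the mural genes Vtn plus Heyl, and no UMI of Hand2, Hoxa2, Hoxb2, Lhx6 or Lhx8, genes of the mandible, the second arch and the oral jaw mesenchyme. These 15 genes chose the cells and were left out of the comparison across genes. The shares of members and the Zic1 and Zic4 levels below use them and are a description.

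Cranial neural crest cells (CNCCs) carrying recombined reporter (eGFP+) were sorted from mouse heads at embryonic day E11.5, cut rostral to the otic placode, and counted by droplet-based 3′ single-cell RNA-seq. The control was wt/flox for Tfap2a and for Tfap2b, so it carried 1 floxed copy of each gene, and the mutant was flox/flox for both. All embryos were r26 mTmG/mTmG and Wnt1CRE+, so the control carried the same reporter and CRE. Each genotype was 1 library made from 2 pooled embryos, so no difference below has a replicate check or a test, and every interval in brackets is a 95% interval for counting error only. The Wnt1 promoter drives CRE in the dorsal neural tube, from which the neural crest leaves, so that labelled brain cells enter the sort beside CNCCs.

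TFAP2A and TFAP2B are transcription factors that act in neural crest from its formation to its patterning in the face. ZIC proteins are zinc finger transcription factors of the dorsal neural tube, and the mesenchyme around the forebrain and eye also expresses them. That mesenchyme gives rise to the meninges, the layered coverings of the brain, and to parts of the eye and skull vault. FOXC1 and FOXD1 are forkhead factors of this tissue, and TBX18 is a T-box factor of meningeal and mural cells.

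In both libraries the cells carried some of the meningeal and some of the periocular markers. CPM, the UMIs of a gene per 1000000 UMIs of the same cells, over the members were set beside those of 1486 control and 983 mutant mesenchyme cells that met the same exclusions and had no Zic1 or Zic4 UMI. Tbx18 was at 120.5 CPM in control and 87.1 CPM in mutant members, against 7.12 and 17.7 CPM in the cells without Zic UMIs. Lamc3, a laminin chain of meningeal basement membrane, was at 31.9 and 16.5 CPM against 0.234 and 0.305 CPM. Lum, a collagen-binding proteoglycan, was at 592 and 336 CPM against 55.6 and 114 CPM. The other marker levels placed Foxc1 at 169 and 139 CPM against 56.6 and 75.6 CPM, and Foxd1 at 168 and 230.5 CPM against 55.1 and 96.4 CPM. All 5 genes were thus higher in members of both libraries. Crabp2, a retinoic acid-binding protein gene of the meningeal list, was lower in members, at 265 and 159.5 CPM against 551 and 453 CPM. Foxl2, an eyelid and ovary forkhead factor, was also lower in them, at 2.36 and 6.32 CPM against 25.2 and 41.8 CPM. Lmx1b, which acts in periocular mesenchyme and limb, was higher, at 18.9 and 12.2 CPM against 1.59 and 1.52 CPM. Ptgds, a marker of later leptomeninges, was at 0 UMIs in every one of these sets. The cells are therefore called Zic-positive mesenchyme here. Because the choice by Zic1 and Zic4 brings such genes with it, these levels are a description.

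**Figure D1:**
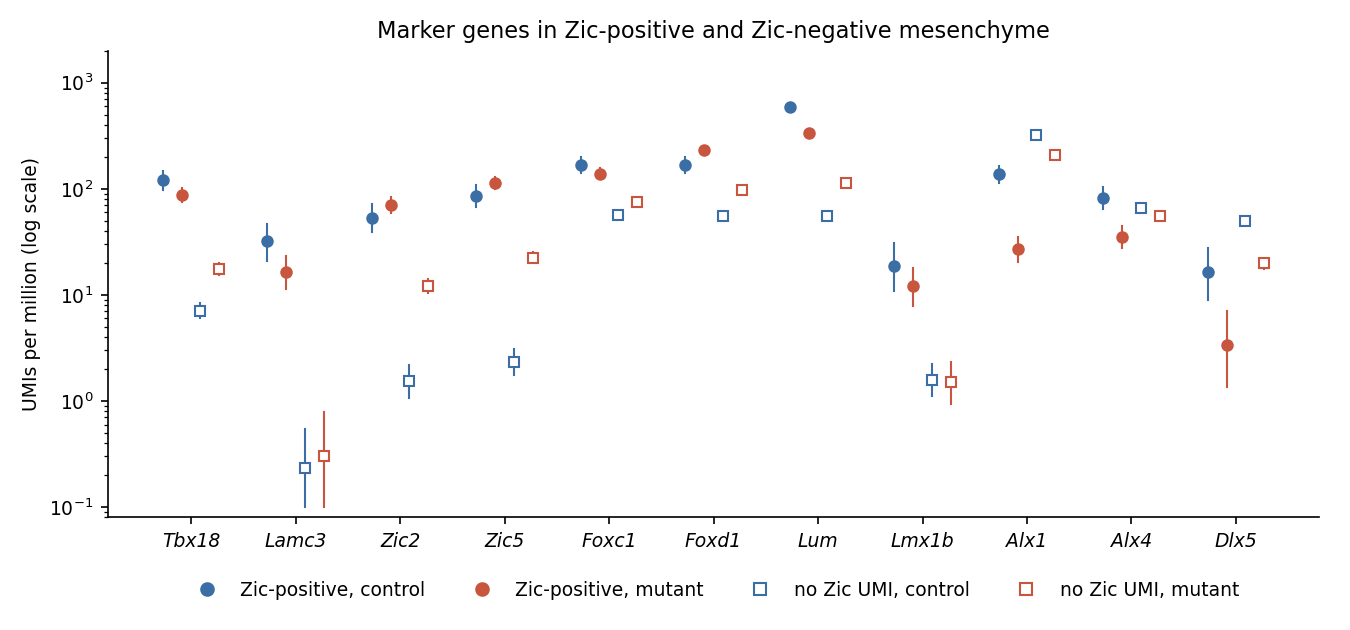
Summed expression in CPM (log axis) of 11 marker genes in Zic-positive members (filled circles) and in mesenchyme without Zic UMIs (open squares) of the control (blue) and mutant (red) library, with exact 95% Poisson intervals drawn down to 0.1 CPM. Tbx18, Lamc3, Zic2, Zic5, Foxc1, Foxd1, Lum and Lmx1b lie higher in members of both libraries, while Dlx5 lies lower.

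TFAP2 proteins bind a palindromic element, and start-site regions were searched for its letters. They were those of Zic1 and Zic4, of some marker and frontonasal genes, of the targeted genes and of a gene pair described below. The motif GCCNNNGGC, which reads the same on both strands, was found in 13.7% of 32851 RefSeq promoter windows (GRCm38.p6, the 250 bases before each start). The windows of Zic1, Foxc1, Col4a1 and Col4a2 each held it once, while those of Zic4, Foxd1, Tbx18, Tfap2a and Tfap2b did not hold it. Lamc3 and the frontonasal genes Alx1 and Alx4 had no window. The 4 windows were picked after the search because they hold the motif, and are shown because Zic1 chose the cells, Foxc1 marks them, and the 2 collagen genes lie head to head and were both lower in the mutant library. Each line gives 29 bases, 5′ to 3′ on the strand of the gene, with the motif in capitals.
Zic1, chr9:91365907-91365935, minus strand, motif from base 157 before the start: tggcgcggcgGCCCCGGGCggggtgtgtg
Foxc1, chr13:31806500-31806528, plus strand, motif from base 136 before the start: gcagagctcgGCCGCTGGCtcattcacag
Col4a1, chr8:11313045-11313073, minus strand, motif from base 237 before the start: agaagcgttgGCCCGTGGCacaccggcgg
Col4a2, chr8:11312598-11312626, plus strand, motif from base 197 before the start: atggtggcgcGCCCGGGGCggcaggggac
Among the genes ranked below, 8 of those lower in the mutant had a window and 1 of these 8 windows held the motif. Of the genes ranked as higher, 10 had 16 windows, and 3 of the 16 held it. A match is only a match of letters.

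The member sums held 846447 control and 2056210 mutant UMIs, with medians of 14177 and 14689 UMIs per cell, so depth per cell was alike and the mutant sum was the more precise. Median mitochondrial shares were 4.62% and 5.04%. Doublets were called in 0 control and 2 mutant members, and of the 5 barcodes that occurred in both libraries none was a member's. Xist had 1072 UMIs in control and 1 in mutant members, while the Y-linked gene Ddx3y had 0 and 119, and the effect of genotype cannot be told apart from that of sex. All 6 immune markers were at 0 UMIs in both, the 9 blood markers summed to 9.45 and 0.486 CPM, and the 7 endothelial markers to 10.6 and 8.75 CPM, with Tie1 and Esam at 0. The 10 mural markers summed to 287 and 221 CPM, mainly Tagln and Pdgfrb, against 118 and 134 CPM in mesenchyme without Zic UMIs. Tagln was at 140.6 and 86.6 CPM against 3.8 and 8.16 CPM. Acta2 was also higher in members, at 14.2 and 7.78 CPM against 0.0469 and 0.0762 CPM. Rgs5, at 0 and 0.486 CPM against 2.30 and 1.91 CPM, and Des, at 5.91 and 2.43 CPM against 6.84 and 7.93 CPM, were lower. The mural genes Kcnj8 and Myh11 were at 0 in members. The 9 neural markers were at 65.0 and 152 CPM. Stmn2, a microtubule regulator of neurons, made up much of this difference, with 7 control and 166 mutant UMIs. At least 5 UMIs of the neural list were carried by 2 control and 18 mutant members. The glial, pigment, muscle and epithelial lists held 22, 11, 3 and 21 UMIs in control and 56, 29, 10 and 39 UMIs in mutant members. Without those cells, 46 of the 49 ranked, listed or marker genes past 1.5-fold stayed past it in the same direction, and Bmp7 (0.49), Igfbp5 (0.21) and Sfrp2 (0.57) did not. Msx1 was then at -1.03, Six2 at -1.55, Ebf1 at 2.04 and Mecom at 2.26 on the log2 scale.

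Zic-positive cells took a larger share of the mutant mesenchyme. Members were 1.60% (1.21 to 2.07) of 3509 control and 5.28% (4.44 to 6.22) of 2558 mutant mesenchyme cells. Within the mesenchyme that met the same exclusions, the shares were 3.56% (2.70 to 4.60) of 1574 and 11.6% (9.86 to 13.6) of 1159 cells. Before any exclusion, 102 control mesenchyme cells had 2 or more Zic UMIs, or 2.91% (2.38 to 3.52). The mutant library had 173 such cells, or 6.76% (5.82 to 7.81). The mural limit left 65 and 141 of them, which widened the contrast. In mesenchyme with at least 2 UMIs of Vtn plus Heyl, the direction was opposite, with overlapping intervals. There 37 of 54 control cells had 2 Zic UMIs or more (68.5%, 54.45 to 80.48). For the mutant it was 32 of 62 (51.6%, 38.56 to 64.5). These counts use the Zic genes themselves and come from 1 library each. A sort and a total set every share, so that more Zic-positive cells and fewer other cells cannot be told apart. After thinning every cell to 5000 UMIs, the share of mesenchyme cells with 2 or more Zic UMIs was 1.55% in control and 4.46% in mutant. In mesenchyme with at least 2 UMIs of Hand2, a mandibular factor, the unthinned shares were 0.791% (0.216 to 2.01) and 0.725% (0.0879 to 2.59), which gives the level in cells that should lack Zic RNA at median depths of 15357 and 16932 UMIs. Labelled neural cells were those with at least 2 UMIs of Sox2 plus Elavl3 and none of Prrx1, Prrx2 or Twist1. Of them, 322 of 1309 control (24.6%) and 543 of 2027 mutant cells (26.8%) reached 2 Zic UMIs. This source of free Zic RNA was thus present in both libraries, with more such cells in the mutant. Whether it added to the share of members was not tested.

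The threshold cut through a range of Zic levels. Members had a median of 4 Zic1 plus Zic4 UMIs in control and 6 in mutant, up to 24 and 29. Just inside, 14 control and 15 mutant members had exactly 2, and just outside, 32 and 41 cells of the same exclusions had exactly 1. Zic1 was detected in all 56 control and in 134 of 135 mutant members, and Zic4 in 25 and 71. Zic1 (GRCm38 chromosome 9, 91358058 to 91365810) and Zic4 (91362413 to 91389348) overlap on opposite strands, so their reads may not be fully separated. Zic2 and Zic5, which lie elsewhere and took no part in the choice, were at 53.2 and 86.2 CPM in control and 70.5 and 113 CPM in mutant members. Their log2 ratios of mutant over control were 0.41 (-0.08 to 0.92) and 0.39 (0.01 to 0.79), neither of them past 1.5-fold. In the mesenchyme without Zic1 or Zic4 UMIs, Zic2 was at 1.55 and 12.2 CPM, with a log2 ratio of 2.98 (2.43 to 3.57), and Zic5 at 2.34 and 22.4 CPM, with 3.26 (2.82 to 3.72).

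The members were not uniform. In 55 control and 134 mutant members thinned to 5000 UMIs, Foxc1 was detected in 50.9% (37.1 to 64.7) and 55.2% (46.4 to 63.8), and Foxd1 in 45.5% (32.0 to 59.4) and 59.0% (50.1 to 67.4). Both factors together were detected in 32.7% of control and 35.8% of mutant members. Tbx18 was detected in 47.3% (33.7 to 61.2) and 31.3% (23.6 to 39.9). Labelled neural cells, which should lack these factors, were thinned alike, from median depths of 10739 and 10356 UMIs. Foxc1, Foxd1 and Tbx18 were detected in 0.0778%, 1.25% and 0% of the control and 0.304%, 1.42% and 0.304% of the mutant neural cells. The shares in members were higher. The neural cells were chosen to hold no Prrx1, Prrx2 or Twist1 UMI, which leaves out cells with much free mesenchymal RNA. Their shares may therefore understate the background of free RNA. Without thinning, Tbx18 was seen in 66.1% of control and 56.3% of mutant members. Any of the 6 Dlx genes, which pattern the pharyngeal arches, was detected in 2 control and 3 mutant thinned members, and none of Foxc1, Foxd1, Tbx18, Alx1 or Alx4 in 4 and 14.

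The libraries also differed in the ALX genes, homeobox factors of the frontonasal mesenchyme. Alx1 was detected in 30.9% (19.1 to 44.8) of control and 6.72% (3.12 to 12.4) of mutant thinned members, and Alx4 in 34.5% (22.2 to 48.6) and 14.9% (9.36 to 22.1). In labelled neural cells the shares were 1.48% and 0.456% for Alx1 and 0.934% and 0.101% for Alx4. Either gene was seen in 28 of 55 control and 27 of 134 mutant members. In the control library the members with Foxc1 had an Alx1 or Alx4 UMI in 53.6% of cells and those without Foxc1 in 48.1%, so that detection of Foxc1 did not divide the ALX-positive from the ALX-negative cells. In the mutant library these shares were 18.9% and 21.7%.

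**Figure D2:**
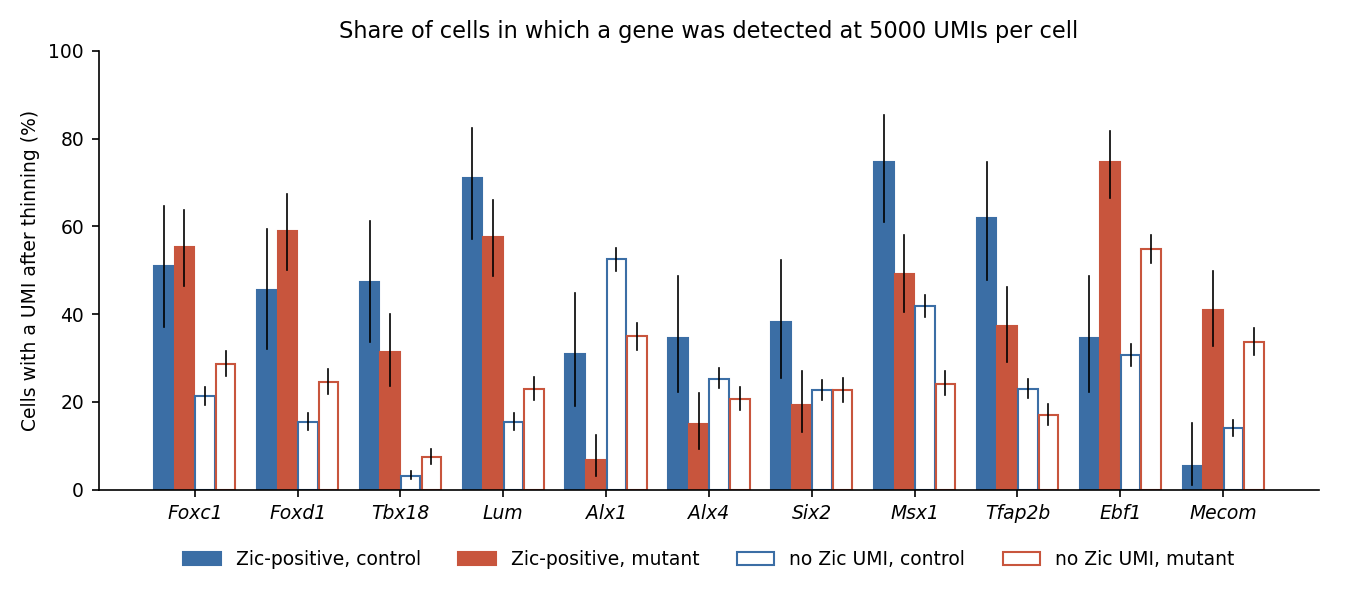
Percentage of cells with at least 1 UMI of a gene after thinning to 5000 UMIs per cell, for members (filled bars) and mesenchyme without Zic UMIs (open bars) of the control (blue) and mutant (red) library, with exact 95% binomial intervals. Alx1 lies at 30.9% and 6.72% of control and mutant members and Mecom lies at 5.45% and 41.0%.

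The targeted genes were both still counted in mutant members. Reads at the 3′ end cannot separate RNA of a floxed allele before recombination from RNA made after it. Tfap2b (chromosome 1, 19208914 to 19238576) had 219 UMIs or 259 CPM in control and 261 UMIs or 127 CPM in mutant members, a log2 ratio of -1.03 (-1.29 to -0.76). It was detected in 61.8% (47.7 to 74.6) of control and 37.3% (29.1 to 46.1) of mutant thinned members, and in 15.6% and 11.6% of labelled neural cells. Tfap2a (chromosome 13, 40715302 to 40738376) had 18 UMIs or 21.3 CPM and 48 UMIs or 23.3 CPM, a log2 ratio of 0.13 (-0.67 to 1.00), an interval that includes 0. In the mesenchyme without Zic UMIs, Tfap2b went from 110 to 91.1 CPM, with a log2 ratio of -0.27 (-0.38 to -0.17). The difference of the Tfap2b ratios was -0.75 (-1.03 to -0.47). Tfap2a went from 34.2 to 22.1 CPM in that mesenchyme, with a log2 ratio of -0.63 (-0.83 to -0.43). The difference of the Tfap2a ratios was 0.76 (-0.04 to 1.57), and its 18 control UMIs in members lay in 11 cells. The related Tfap2c had 2 control and 16 mutant UMIs in members, and Tfap2d and Tfap2e had none.

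Mutant and control members were then compared over 4664 genes with at least 100 UMIs in sum. By a threshold of 1.5-fold, 167 genes (3.58%) were higher and 95 (2.04%) lower in the mutant library, 262 (5.62%) in all. Without the cells that carried at least 5 UMIs of the neural list, 132 genes were higher and 82 lower of 4145, and 103 and 71 of these had the same call with all members. The minimum on the summed UMIs is met more readily by genes high in the mutant library, whose sum was the larger, so the shares of higher and lower genes over all tested genes are given beside the list counts. The median log2 ratio of all tested genes was 0.01. A gene past 1.5-fold is called higher or lower below. The named genes are the 12 highest and the 12 lowest with at least 200 UMIs that kept 1.5-fold when the 10 cells with most UMIs of the gene were left out of each library. Only 11 lower genes met that rule, and 16 others did not, since 10 cells are a larger part of 56 than of 135.

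The lower genes were led by factors and binding proteins of the midface. Six2 (chromosome 17, 85684277 to 85688274), a homeobox factor that keeps mesenchymal progenitors undifferentiated, had 144 CPM in control and 48.2 CPM in mutant members, a log2 ratio of -1.58 (-1.98 to -1.19). Crabp1 (chromosome 9, 54764748 to 54773110), a cytoplasmic retinoic acid-binding protein, was among the most abundant of them, at 1487 and 660 CPM, with -1.17 (-1.28 to -1.06). Msx1 (chromosome 5, 37820485 to 37824583), a homeobox factor of palate and tooth mesenchyme, was at 618 and 288 CPM, with -1.10 (-1.27 to -0.93). These counting intervals all excluded 0, but they leave out the spread between cells. For Six2, 10 cells held 60.7% of the control UMIs. Bmp4, a secreted signal upstream and downstream of MSX1 in tooth and face, was at 106 and 59.8 CPM, and Epha4, an ephrin receptor that guides cells and axons, at 100.4 and 59.3 CPM. Col4a1 (chromosome 8, 11198423 to 11312826), a chain of basement membrane collagen, was at 499.7 and 282 CPM, with -0.83 (-1.01 to -0.64). Its head-to-head neighbour Col4a2 moved alike, from 274 to 171 CPM, but lost 1.5-fold without its 10 top cells. Lum (chromosome 10, 97565128 to 97572703) was lower by -0.82 (-0.98 to -0.65) on the log2 scale. Csrp2, a LIM protein of smooth muscle, had -0.65. The X-linked translation factor gene Eif2s3x was at -0.91, and at -0.78 in mesenchyme without Zic UMIs. The Y-linked Eif2s3y had 0 control and 75 mutant UMIs in members, and the part of sex in the Eif2s3x value was not tested.

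The ranked higher genes began with Arhgap6, Mecom and Ebf1. Arhgap6 (chromosome X, 168795099 to 169304435), which encodes a GTPase-activating protein, had 4 control and 245 mutant UMIs, a log2 ratio of 4.66 (3.28 to 6.54). The ratio was 5.34 in mesenchyme without Zic UMIs and 6.33 in the mural cells. Mecom (chromosome 3, 29951296 to 30548008), a zinc finger factor, had 26.0 and 117 CPM, with 2.17 (1.54 to 2.87). It was detected in 5.45% (1.14 to 15.1) of control and 41.0% (32.6 to 49.9) of mutant thinned members, against 8.40% and 8.06% of labelled neural cells. Ebf1 (chromosome 11, 44617317 to 45008091), a helix-loop-helix factor of B cells, fat and neural crest mesenchyme, had 112 and 401 CPM, with 1.84 (1.53 to 2.16), and was detected in 34.5% and 74.6% of thinned members. Labelled neural cells also carried Ebf1 RNA, in 45.3% and 47.4% of cells. The imprinted genes Nnat and Peg3 were at 1001 and 2349 CPM and at 307 and 691 CPM, with 1.23 (1.13 to 1.34) and 1.17 (0.98 to 1.36). The remaining named genes were Limch1 at 1.56, Shisa2, an inhibitor of FGF and Wnt receptor maturation, at 1.49 (-0.18 with cells chosen after thinning), the cysteine dioxygenase gene Cdo1 at 1.42, the growth factor gene Ptn at 1.12, the netrin receptor gene Unc5c at 1.11, the small GTPase gene Rhoj at 1.05 and the cartilage collagen gene Col2a1 at 0.99. Nnat was detected in 56 of 56 control and 134 of 135 mutant members and Peg3 in 51 and 131. The 10 cells with most Nnat held 60.0% of its control UMIs. Its log2 ratio was 1.90 without the 10 top cells of each library, which are a larger part of the control members. It was 1.39 without the top 5% of cells in each library.

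**Figure D3:**
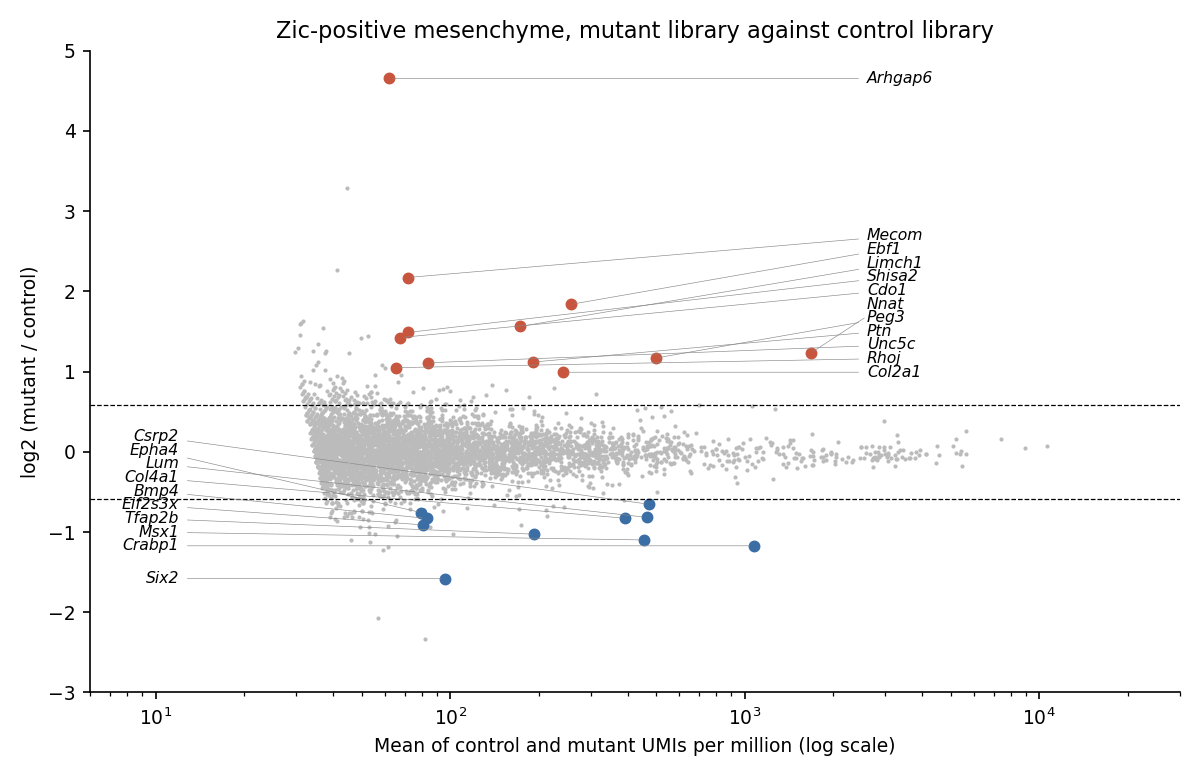
Log2 ratio of mutant over control against mean expression (CPM, log axis) for the tested genes in Zic-positive mesenchyme, grey points being single genes and dashed lines marking 1.5-fold. Named higher genes are red and named lower genes blue, from Six2 at -1.58 to Arhgap6 at 4.66, and Xist and genes with 0 control UMIs are not drawn.

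Frontonasal genes were the list with the lowest median. Of the 7 tested genes of 11, 6 were lower and none was higher, with a median log2 ratio of -1.17, against 2.04% lower and a median of 0.01 over all tested genes. Alx1 (chromosome 10, 102998707 to 103030215) had 116 UMIs or 137 CPM in control and 56 UMIs or 27.2 CPM in mutant members, a log2 ratio of -2.33 (-2.82 to -1.86). With cells chosen after thinning to 5000 UMIs, the ratio of Alx1 was -0.54, under 1.5-fold, while it stayed past 1.5-fold in the other 11 alternatives that gave a value. Alx4 (chromosome 2, 93642384 to 93681339) was at 82.7 and 35.5 CPM, with -1.22 (-1.71 to -0.73). Six2, Crabp1, Msx1 and Tfap2b were the other 4. Tfap2b is a targeted gene, and without it 5 of 6 tested genes were lower. Msx2, the paralogue of Msx1, was at 78.0 and 96.8 CPM, with 0.31 (-0.10 to 0.74). Pax3 and Pax7, paired-box factors of neural crest, were nearly absent from members, with 2 and 8 control and 10 and 8 mutant UMIs. The list was chosen with earlier results of these libraries known, so its direction is not independent evidence.

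Periocular genes went both ways, and the meningeal genes past 1.5-fold were all lower. Among 9 tested meningeal genes, 3 were lower and none higher, with a median log2 ratio of -0.39, where 2.04% of all tested genes were lower and 3.58% higher. The lower ones were Lum, S100a6, a calcium-binding protein gene, at -1.13 (-1.64 to -0.61), and Crabp2 at -0.73 (-0.98 to -0.48). Without its 10 top cells Crabp2 was at -0.27, and with cells chosen after thinning at -0.11. Leaving out the top 5% of cells, a like share of each library, gave -0.74. Tbx18 was at -0.47 (-0.83 to -0.10) and Nr2f2, an orphan nuclear receptor gene, at -0.39 (-0.60 to -0.18), both under 1.5-fold. Foxc1 was at -0.29 (-0.58 to 0.01), and Foxd1 at 0.46 (0.18 to 0.74). Lamc3 had only 27 control and 34 mutant UMIs and was not among the tested genes. Of 6 tested periocular genes, 3 were higher and 1 lower. The higher ones included Meis2, a homeobox factor gene, at 0.94 (0.20 to 1.76), and Foxc2, the paralogue of Foxc1, at 0.82 (0.28 to 1.40). With cells chosen after thinning these ratios changed sign, to -0.17 and -0.14. The lower one was the growth factor gene Tgfb2 at -0.93 (-1.46 to -0.40), with 78.2% of its control UMIs in 10 cells. Its ratio was -0.12 without the 10 top cells of each library, which are a larger part of the control members. Without the top 5% of cells in each library it was -1.28. Rarb, a retinoic acid receptor gene under the 100 UMI minimum, had 54 control and 40 mutant UMIs.

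Among skeletal and matrix genes no single direction prevailed, beside 3.58% higher and 2.04% lower of all tested genes. Of 6 tested skull and cartilage genes, 1 was higher and 2, Six2 and Msx1, were lower. The higher one was Sox9, the factor that drives cartilage formation, at 164 and 284.5 CPM, with 0.79 (0.52 to 1.07). Runx2, Sp7, Alpl and Spp1, genes of bone formation, had between 0 and 4 UMIs in each library. Of 16 tested collagens, 3 were higher and 2 lower with a median of -0.01. Col12a1 was at 1.35 (0.60 to 2.18) and Col9a1 at 0.78 (0.36 to 1.22) beside Col2a1, and Col4a1 and Col4a2 were the lower 2. The fibrillar Col1a1 and Col3a1 were at 373 and 354 CPM and at 1389 and 1100 CPM, both under 1.5-fold. Of 17 tested other matrix genes, 2 were higher and 3 lower, with a median of -0.08. Hapln1 (chromosome 13, 89539796 to 89611652), which links hyaluronan to proteoglycans, had 78 control and 45 mutant UMIs, with -2.07 (-2.64 to -1.53). Its partner Vcan, a large hyaluronan-binding proteoglycan, was at 236 and 388 CPM, with 0.72 (0.49 to 0.95). The laminin gene Lamb1 was lower, at -0.71 (-1.14 to -0.28).

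**Figure D4:**
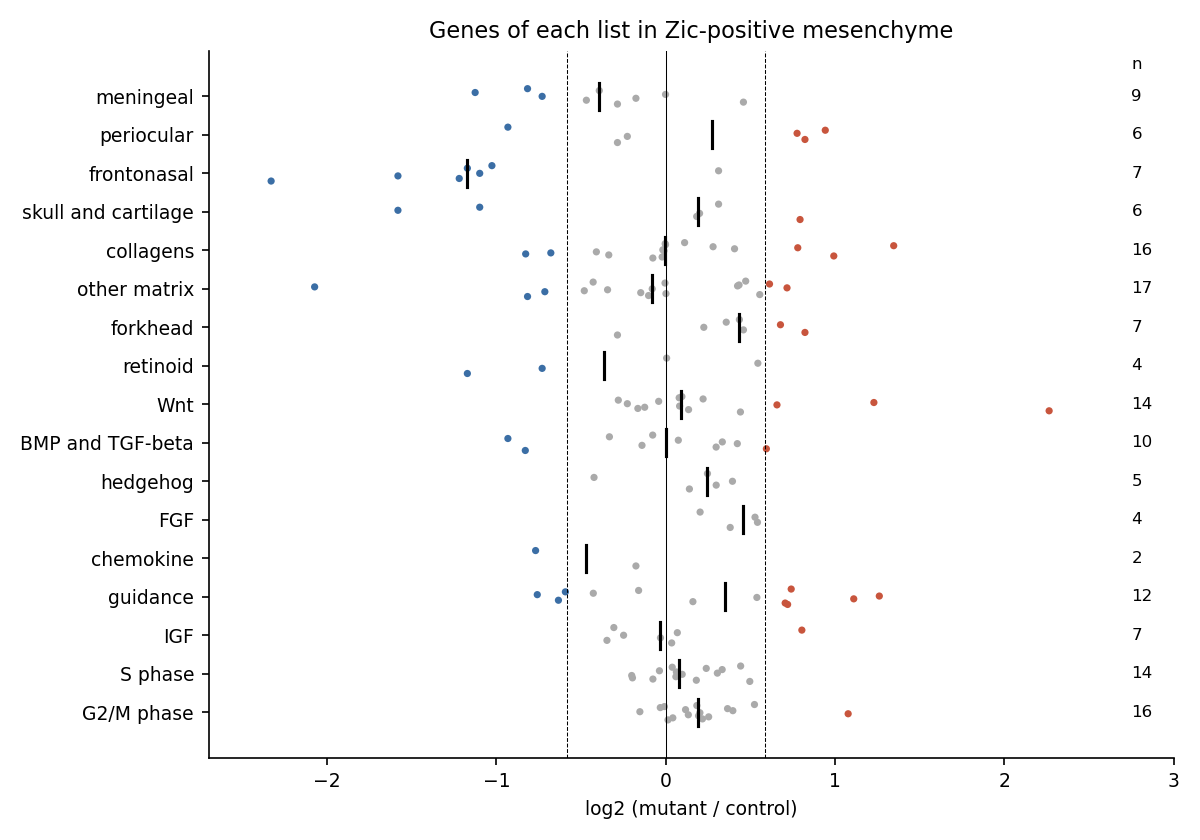
Log2 ratio of mutant over control for each tested gene of 17 lists in Zic-positive mesenchyme, with the number of genes tested at the right, the list median as a black bar and 1.5-fold as dashed lines. Genes past 1.5-fold are red (higher) or blue (lower), and the frontonasal list has the lowest median, -1.17.

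Signalling genes were examined from ligands to targets. In the Wnt pathway, where secreted ligands and R-spondins act through Frizzled receptors and LEF/TCF factors, 3 of 14 tested genes were higher and none lower, beside 3.58% and 2.04% of all tested genes. Rspo3 (chromosome 10, 29452416 to 29535867), an R-spondin gene, had 12 control and 140 mutant UMIs, or 14.2 and 68.1 CPM, with 2.26 (1.41 to 3.25). It was detected in 7 of 56 control and 53 of 135 mutant members. Lef1 was at 27.2 and 63.7 CPM, with 1.23 (0.58 to 1.94), and the Wnt antagonist gene Sfrp2 at 0.66 (0.15 to 1.19), which was at -0.35 with cells chosen after thinning. The Wnt target gene Axin2 was at 0.22 (-0.27 to 0.73) and the list median was 0.09. Of 10 tested BMP and TGF-β genes, 1 was higher and 2 lower, with Bmp7 at 0.59 (0.00 to 1.23) and Bmp4 and Tgfb2 described above. Bmp7 was at -0.34 with thinned members. The BMP target genes Id1, Id2 and Id3 were between 0.07 and 0.42.

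None of the 5 tested hedgehog genes and none of the 4 tested FGF genes was past 1.5-fold. Over all tested genes, 3.58% were higher and 2.04% lower. The hedgehog receptor and target gene Ptch1 was at 0.14 (-0.42 to 0.73), and the FGF target gene Dusp6 at 0.53 (0.10 to 0.97). The FGF target genes Etv4, Etv5 and Spred2 were under the UMI minimum, with 13, 15 and 8 control and 62, 73 and 53 mutant UMIs. Of 4 tested retinoid genes, 2 were lower, the binding protein genes Crabp1 and Crabp2. Of 2 tested chemokine genes, the scavenger receptor gene Ackr3 was lower at -0.77 (-1.33 to -0.20), or 0.077 with cells chosen after thinning, and its ligand gene Cxcl12 was at -0.18 (-0.46 to 0.12). Guidance genes held 5 higher and 3 lower of 12, the ephrin system among both. Epha3 was at 1.26 (0.51 to 2.10) and the ligand gene Efnb2 at 0.74 (0.19 to 1.33), against Epha4 at -0.76 (-1.17 to -0.34). Of 7 tested insulin-like growth factor genes, Igfbp5 was higher, at 0.80 (0.16 to 1.495), or -0.21 with cells of 1 or more Zic UMIs. Of 7 tested forkhead genes, Foxc2 and Foxp2 were higher, the latter at 143 and 229 CPM, with 0.68 (0.39 to 0.98). The median log2 ratios were 0.25 for hedgehog, 0.45 for FGF, -0.36 for retinoid, -0.47 for chemokine, 0.35 for guidance, -0.03 for insulin-like growth factor and 0.43 for forkhead genes.

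Few cell cycle genes were past 1.5-fold, as among all tested genes, of which 5.62% were. None of 14 tested S phase genes and 1 of 16 tested G2/M genes, the mitotic checkpoint kinase gene Bub1 at 1.08 (0.52 to 1.67), was past it. The list medians were 0.08 and 0.19, beside 0.01 over all tested genes. At least 3 UMIs of the G2/M list were found in 69.1% (55.2 to 80.9) of control and 79.1% (71.2 to 85.6) of mutant thinned members. For the S phase list the shares were 90.9% (80.0 to 97.0) and 93.3% (87.6 to 96.9). The intervals of both pairs overlap.

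The named genes were set beside the mesenchyme without Zic UMIs. They were ranked by their ratio in members, so the differences between the ratios of members and other cells are a description. The share of all tested genes that kept their sign or passed 1.5-fold in the other cells is not given here. The counts of named genes that did so are therefore a description as well. All 12 higher genes were also higher there in sign, 7 of them past 1.5-fold. For Peg3 the ratios were 1.17 and 0.40, a difference of 0.77 (0.58 to 0.97). Of the 11 lower genes, 9 were also below 0 there, 4 of them past 1.5-fold. Six2 was at -0.04 (-0.16 to 0.08) in mesenchyme without Zic UMIs, a difference of -1.54 (-1.94 to -1.14), and Col4a1 at -0.01 (-0.10 to 0.08), a difference of -0.82 (-1.02 to -0.62). Alx1 was at -0.63 (-0.69 to -0.56) there, a difference of -1.71 (-2.17 to -1.24), and Rspo3 at 0.21 (0.04 to 0.39), a difference of 2.05 (1.18 to 2.92). Crabp1, at -1.06 (-1.09 to -1.04), was nearly as much lower outside the members, a difference of -0.11 (-0.22 to 0.00). Lum and Epha4 had the opposite sign, Lum being at 55.6 and 114 CPM without Zic UMIs. In 54 control and 62 mutant cells of the mural mesenchyme, with at least 2 UMIs of Vtn plus Heyl, the lower genes kept their sign for 9 of 11 and the higher genes for 10 of 12.

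**Figure D5:**
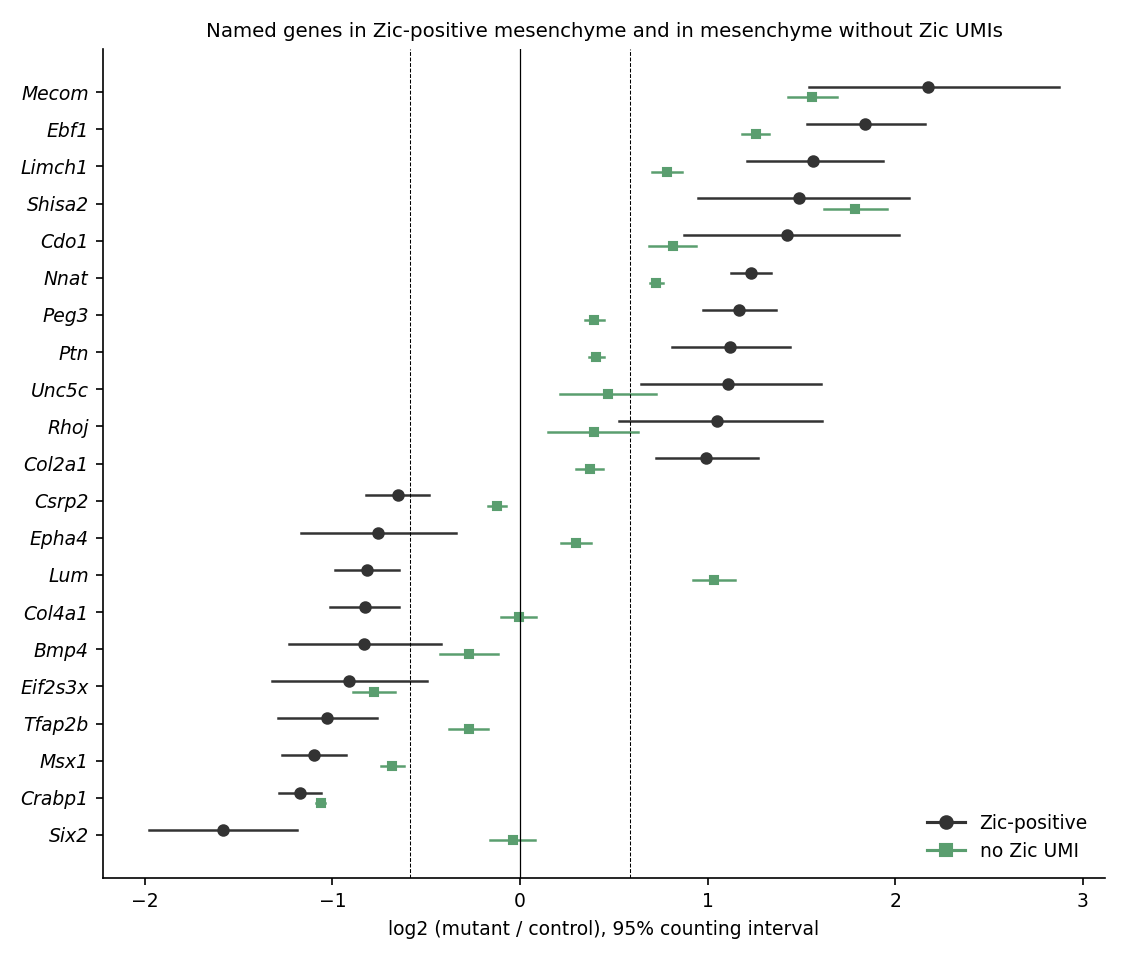
Log2 ratio of mutant over control with 95% counting intervals for 21 named genes in Zic-positive members (black circles) and in mesenchyme without Zic UMIs (green squares), dashed lines marking 1.5-fold. Six2 and Col4a1 lie below -0.80 in members and near 0 outside them, while the values of Crabp1 lie close together and Lum lies on opposite sides.

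The differences were also read within parts of the members, since the libraries differed in makeup. Among 37 control and 76 mutant members with a Tbx18 UMI, Alx1 was at -1.80 (-2.37 to -1.24), Six2 at -1.68 (-2.17 to -1.21), Msx1 at -1.31 (-1.53 to -1.09) and Crabp1 at -0.95 (-1.09 to -0.81). Ebf1 was at 1.86 (1.48 to 2.26) and Mecom at 1.97 (1.25 to 2.79) in the same cells. Among the 19 and 59 members without a Tbx18 UMI, the ratios of Crabp1 and Ebf1 were -1.57 (-1.76 to -1.38) and 1.81 (1.28 to 2.38). In the 43 control and 54 mutant members with an Alx1 or Alx4 UMI, Msx1 was at -0.77 (-0.99 to -0.56), Tfap2b at -0.79 (-1.10 to -0.47) and Ebf1 at 1.60 (1.23 to 1.99). In the 13 and 81 members without one, Msx1 was at -1.54 (-1.87 to -1.21), Ebf1 at 1.68 (1.07 to 2.37) and Tfap2b at -0.36 (-1.07 to 0.42), an interval that includes 0. Sox9 was at 1.16 (0.82 to 1.502) in the 40 and 98 members with a Foxd1 UMI and at -0.23 (-0.73 to 0.29) in the 16 and 37 without one. Crabp1, Msx1, Lum, Ebf1, Mecom, Nnat and Col2a1 had the same sign in all 6 of these parts, with every interval on 1 side of 0. The parts overlap, since each division used the same cells of 1 library per group. These genes had also been ranked by their ratio in all members, so the shared sign is a description and not a repeat.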

How the data were processed

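Sorted E11.5 CNCCs of 2 libraries were used. The authors made the deposited counts, whole-number UMIs per gene and barcode, with bcl2fastq and Cell Ranger (6.0.0 in the file headers) on mm10; the strand setting was not given in the sources used here, so reads of overlapping genes may not be separated. Barcodes with 200 to 7500 genes and at most 10% mitochondrial UMIs were kept, and mesenchyme and members were gated as described. The members and the gene lists were chosen with earlier results of these data known. UMIs were summed per library and divided by the library's member total (CPM). Ratios have exact conditional binomial intervals, sums exact Poisson and shares exact Clopper-Pearson intervals, at 95%, and differences of ratios a delta-method interval. The intervals of ratios, sums and differences treat each UMI as independent and leave out the spread between cells. With 1 library per group there was no test. Beyond the ranked genes, the targeted genes, label markers and up to 4 genes past 1.5-fold per list were named, and further list members were named after their values were seen. Haemoglobin, sex-specific, mitochondrial, ribosomal and unnamed genes were not ranked. Doublets were called with Scrublet in scanpy 1.11.5 and kept. On counts simulated without spread between cells, the estimate was checked to recover known ratios. This checks the calculation only, and does not show how the intervals fare on real cells. Scaling by TMM used edgeR 4.0.16. Positions are from GENCODE M21. Some genes are not reported here by name but stay in the counts and medians.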

Additional observations from a re-analysis of the deposited data

Results flagged for a closer look

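For 9 named genes the ratio of mutant over control had opposite signs in members and in mesenchyme without Zic UMIs, with both counting intervals away from 0. The difference between libraries was not tested, since each group is 1 library. Of the genes lower in members, Lum was at -0.82 in members and 1.04 outside, Epha4 at -0.76 and 0.30, Tgfb2 at -0.93 and 0.21, Lamb1 at -0.71 and 0.23, Ackr3 at -0.77 and 0.20, and Tbx18 at -0.47 and 1.31. Of the genes higher in members, Sox9 was at 0.79 and -0.32, Lef1 at 1.23 and -0.16, and Efnb2 at 0.74 and -0.42.

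Xist and the Y-linked genes were left out of the ranking of named genes. Xist was detected in 98.2% of control and 0.741% of mutant members, and a Y-linked transcript in 80.7% of mutant and no control members.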

How the results depend on the processing

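No paired analysis was possible because each group was 1 library. The 56 control cells gave the wider counting error, and none of these values measures the spread between embryos. Where values moved, the cause was not tested beyond the smaller number of cells or genes. Leaving out the top 5% of cells per gene and leaving out cells with neural RNA were chosen after seeing the data. The counts of genes higher and lower were 52 and 35 of 1584 with thinned members, 916 and 660 of 9500 with a minimum of 20 UMIs, and 22 and 15 of 1600 with a minimum of 300. Leaving out the 10 top cells of each gene gave 1235 and 31. It removes 10 of 56 control but 10 of 135 mutant cells and moved the median of all genes to 0.31, so that 97.6% of calls were higher, against 63.7% in the main comparison. That setting moved list medians to 0.91 (forkhead), 0.64 (hedgehog), 0.86 (FGF), -0.068 (chemokine), 0.94 (guidance), 0.51 (S phase) and 0.76 (G2/M). With the cells chosen after thinning (26 and 63 members, 0.906% and 2.999% of mesenchyme), 76 genes were higher and 69 lower, 52.4% of calls being higher. List medians were then 0.81 (skull and cartilage), -0.20 (Wnt), 0.42 (hedgehog), 0.74 (FGF), -0.14 (S phase) and 0.37 (G2/M), and Shisa2 (-0.18), Meis2 (-0.17), Foxc2 (-0.14), Sfrp2 (-0.35) and Ackr3 (0.077) changed sign. In members without Alx1 or Alx4 UMIs (13 and 81), 259 genes were higher and 119 lower, with list medians of -0.45 (collagens), 1.09 (hedgehog), 0.72 (FGF), -0.40 (insulin-like growth factor), -0.11 (S phase) and 1.12 (G2/M). Sfrp2 (-0.28), Bmp7 (-0.001378) and Igfbp5 (-0.042) changed sign there, as did Bmp7 with thinned members (-0.34) and Igfbp5 at 1 or more Zic UMIs (-0.21). Members with a Tbx18 UMI had medians of 0.57 (FGF) and -0.083 (chemokine). At 3 or more Zic UMIs the chemokine median was -0.041 and the control share 1.197%, and at 1 or more the shares were 2.51% and 6.88%. Without thinning, 100% of mutant members passed either cell cycle list. Of 678 ratios of named genes under the alternatives, 564 moved by less than the counting error, 104 moved more and 10 changed sign, and of 254 list medians 232 stayed within it.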
